A study of Mus musculus with 6 samples.

Results

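The comparison described here is the step in recovery of mouse skeletal muscle between 1 h and 3 h after the end of electrical pacing. It sets the array of muscle taken 3 h after pacing against the array of muscle taken 1 h after it, which are 2 of the 6 arrays of the series. Both groups were mice with an implanted pacer that stimulated the muscle for 3 h, so they share the implant, the pacing and its length and differ in the time of harvest. The strain, the age, the muscle and the number of mice behind each RNA are not stated in the labels. Each array carried total RNA of the paced muscle in channel 1 and one control muscle RNA, called Pre, in channel 2. A value is a log2 ratio of the sample to Pre, and a difference is the ratio at 3 h minus the ratio at 1 h, in which Pre appears on both sides. Reading the ratio as sample over Pre is likely from the labels, but the dyes are not stated, and every direction below rests on that reading.

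Contraction of skeletal muscle switches on transcription in stages. Calcium and cyclic AMP signals act within minutes on immediate early genes, and genes of fuel use, protein breakdown and protein folding follow during the hours of rest. Pdk4, which shifts fuel use from carbohydrate to fat, the ubiquitin ligase gene Trim63 and the signalling gene Sik1 are known members of that response in muscle.

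Probes with a measured ratio on both arrays numbered 11629 of 13872, after exact zeros were set aside as spots without a measurement. They covered 3579 of the 3939 genes that have a probe with exactly 1 gene symbol, of which 2633 had 1 such probe and 946 had several. A single array stands for each time, so differences have no replicate check and carry no p-value, and the number of arrays limits the precision. The error quoted for a gene is the standard deviation of its probes' differences (probe SD), which covers the spots and not the animals. Pooled over the 946 genes it was 0.34 log2 units. The arrays also differed in spread. The robust SD of the log2 ratios was 0.445 at 3 h and 0.176 at 1 h, a ratio of 2.52, and the 1 h array was the narrowest and the 3 h array the widest of the 5 paced arrays. Differences were therefore computed on the centred ratios and again with both arrays scaled to one spread. That scaling multiplies the 3 h ratios by 0.630 and the 1 h ratios by 1.59. A difference given without a scaled value is on the centred ratios and need not hold after scaling. The file holds ratios alone, so the level of a muscle marker cannot be checked against other tissues.

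Past 2-fold (a log2 difference of 1 or more) lay 24 genes higher at 3 h than at 1 h, which is 0.671% of the 3579 genes, and 35 genes lower, which is 0.978%, or 1.65% in either direction. The highest was Sf3b2, a splicing factor gene, and the lowest was Niban2, a gene of the Niban family. All 24 higher genes stood above Pre at 3 h, 21 of them at 2-fold or more, and 20 were above Pre at 1 h as well. All 35 lower genes stood below Pre at 3 h, 32 of them at 2-fold or more, and 22 were already below it at 1 h. Of the 59 genes, 57 had a single probe. The share called was 2.16% among genes with 1 probe and 0.211% among genes with several, so no second spot checks nearly all of these calls. Just inside the threshold lay Cckar at 1.01 and Pdgfra at -1.02, and just outside it 2310002L09Rik at 0.996 and Pde12 at -0.997. Counted by probe, named or not, 104 passed 2-fold upward and 183 downward, and 56 and 122 of these have no single gene symbol.

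**Figure D1:**
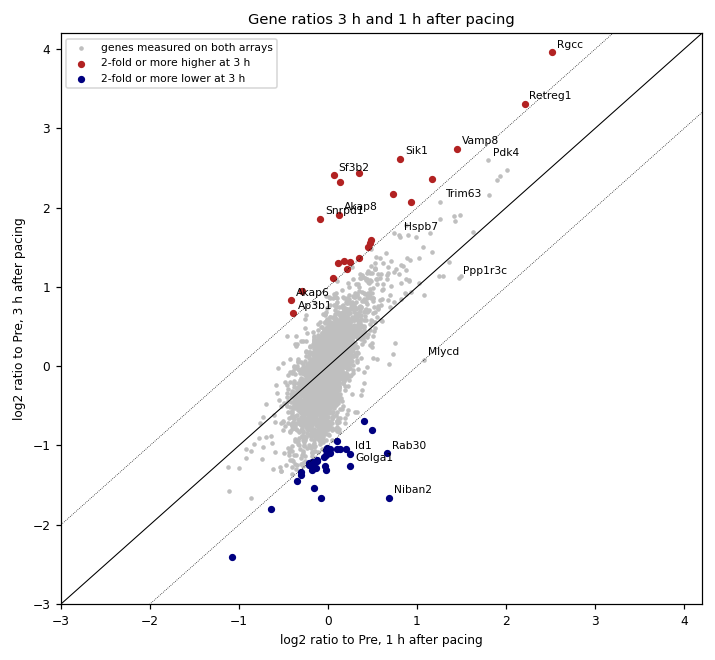
Log2 ratio to Pre of 3579 genes on the 3 h array (vertical axis) against the 1 h array (horizontal axis). Red points are the 24 genes at least 2-fold higher at 3 h, blue points the 35 at least 2-fold lower, the solid line marks equal ratios and the dotted lines 2-fold differences. The cloud is steeper than the line of equal ratios, since the robust SD was 0.445 at 3 h and 0.176 at 1 h.

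Scaling the arrays to one spread left 7 genes higher (0.196%) and 27 lower (0.754%). The 7 higher genes and 6 of the lower genes were called in the same direction on the centred ratios, 13 genes in all. The same 13 were also called when the arrays were scaled by their plain SD and when they were quantile normalized. Across the genes, the 2 arrays correlated with r = 0.71 (n = 3579 genes, which share 2 libraries and the Pre channel and are not independent replicates). The 13 genes are described next, each on 1 probe.

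Among the higher genes, 2 code for parts of the spliceosome, which removes introns from transcripts. Sf3b2, a subunit of the SF3b complex that recognises the branch site, had a log2 ratio of 2.41 at 3 h and 0.06 at 1 h. That is 5.08-fold higher at 3 h, a difference of 2.35, or 1.42 after scaling. Snrpd1, a core Sm protein of the spliceosomal particles, had 1.86 at 3 h and -0.09 at 1 h, a difference of 1.95, or 1.31 after scaling. Over the 5 paced arrays Sf3b2 stood apart at 3 h alone, with -0.01, 0.06, 2.41, -0.06 and 0.25 on the 0, 1, 3, 8 and 24 h arrays. Snrpd1 was high at 3 h and again at 24 h, where it stood at 1.42, against -0.02 at 8 h. The 52 measured splicing and RNA-binding genes, these 2 included, had a median difference of -0.00, with 26 above 0 and 26 below. Of that list 2 genes were called higher and 1 lower, beside 0.671% and 0.978% of all genes. The lower one was Tra2a, a splicing activator, with -1.31 at 3 h and -0.03 at 1 h. Its difference of -1.28 was -0.78 after scaling. Its relative Tra2b stood at 0.86 at 3 h and 0.10 at 1 h.

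Akap8, Akap6 and Prkx, described together because each is related to protein kinase A, were put side by side after their values were seen, and no list stands behind them. Akap8, which anchors protein kinase A in the nucleus, had 1.91 at 3 h and 0.12 at 1 h, a difference of 1.79, or 1.01 after scaling. Akap6, the muscle anchoring protein of the nuclear envelope, had 0.83 at 3 h and -0.41 at 1 h, a difference of 1.25, or 1.18 after scaling. Prkx, a catalytic kinase related to protein kinase A, had 0.95 at 3 h and -0.29 at 1 h, with 1.25, or 1.06 after scaling. Akap6 and Prkx were above Pre on the 3 h array alone: Akap6 stood at -0.53, -0.41, 0.83, -0.69 and -0.49 on the 0, 1, 3, 8 and 24 h arrays, and Prkx at -0.14, -0.29, 0.95, -0.68 and -0.43. The other 4 anchoring protein genes measured lay between Akap8l, at a difference of -0.79, and Akap11 at 0.32. The kinase subunit genes Prkaca, Prkacb and Prkar2a were near 0, at 0.12, 0.02 and 0.18. Ppp1r1a, a phosphatase inhibitor that protein kinase A activates, had 1.55 at 3 h and 0.47 at 1 h, a difference of 1.08 that was 0.23 after scaling.

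Vesicle traffic genes lay on both sides. Ap3b1, a subunit of the AP-3 adaptor that sorts cargo to lysosomes, had 0.67 at 3 h and -0.39 at 1 h, a difference of 1.06, or 1.04 after scaling. Its partner subunit genes Ap3d1 (0.87, 2 probes, probe SD 0.74) and Ap3m1 (0.86, 2 probes, probe SD 0.84) were also above 0, although their probes disagreed, and Ap3s2 stood at 0.04. In the other direction, Rab30, a small GTPase of the Golgi, had -1.10 at 3 h and 0.66 at 1 h, which is 3.39-fold lower at 3 h, and its difference of -1.76 was -1.74 after scaling. Golga1, a tether of the trans-Golgi, had -1.25 at 3 h and 0.25 at 1 h, a difference of -1.504, or -1.19 after scaling. Golga1 alternated between arrays, with -1.82, 0.25, -1.25, -0.06 and -0.26 on the 0, 1, 3, 8 and 24 h arrays. Of the 86 measured Golgi and endosome genes, 51 were above 0, and 3 were called higher (Ap3b1, Cope and Vamp8) and 2 lower. Over all genes the shares called were 0.671% higher and 0.978% lower. The list median was 0.04, against 0.01 for all genes. Cope, a COPI coat subunit, had 1.23 at 3 h and 0.21 at 1 h, with 0.44 after scaling.

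The other lower genes that held under scaling were Niban2, Id1, Kap and Tpgs1. Niban2 had -1.66 at 3 h and 0.69 at 1 h, 5.09-fold lower at 3 h, with a difference of -2.35, or -2.14 after scaling. It stood at 0.15, 0.69, -1.66, 0.71 and 0.32 on the 0, 1, 3, 8 and 24 h arrays, so the 3 h array alone was below Pre. Id1, an inhibitor of basic helix-loop-helix factors that bone morphogenetic proteins induce, had -1.11 at 3 h and 0.25 at 1 h, 2.56-fold lower at 3 h, or -1.10 after scaling. Kap, a gene known for its androgen control in kidney, had -0.81 at 3 h and 0.50 at 1 h. Tpgs1, a subunit of the tubulin polyglutamylase, had -0.69 at 3 h and 0.41 at 1 h. The remaining higher member, 1810021B22Rik, had 2.33 at 3 h and 0.13 at 1 h, a difference of 2.20, or 1.26 after scaling.

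**Figure D2:**
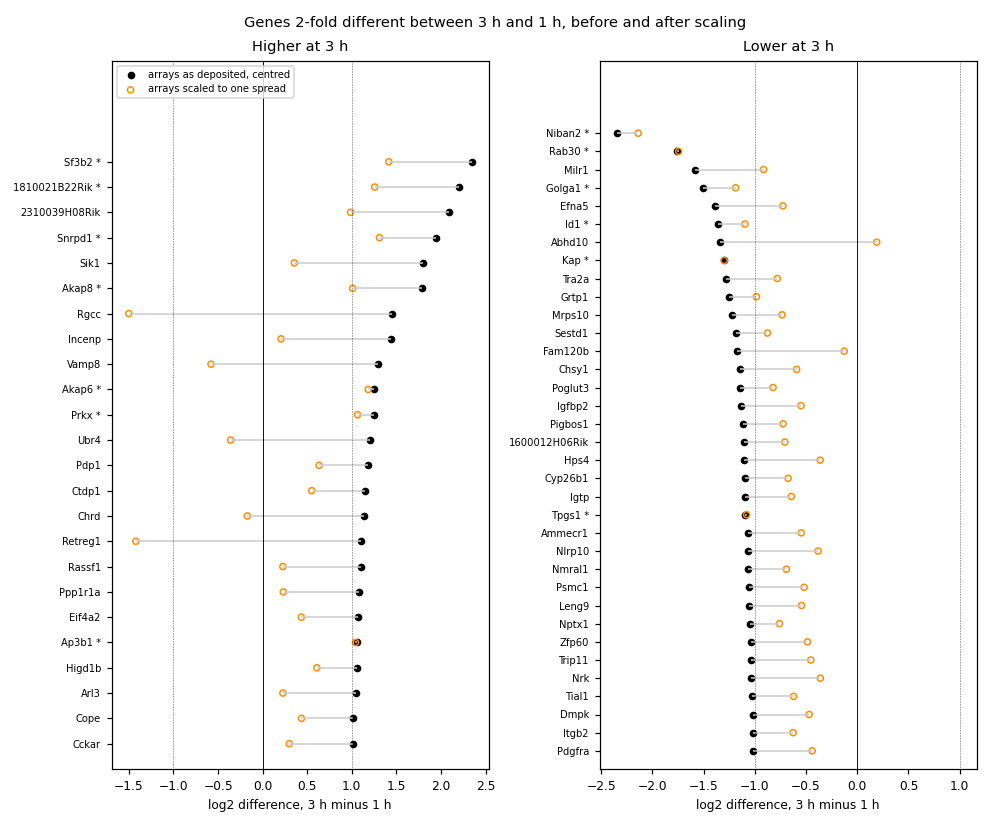
Log2 difference, 3 h minus 1 h, of the 24 higher genes (left) and the 35 lower genes (right) on the centred ratios (filled points) and after both arrays were scaled to one spread (open circles). Dotted lines mark 2-fold, and an asterisk marks the 13 genes called in one direction under every scaling. Rgcc and Retreg1 cross from the higher side to the lower side.

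Promoter windows for the genes called came from the RefSeq table of GRCm38.p6 and span 250 bases before to 50 after each start site. The table held 15 of the 24 higher genes and 28 of the 35 lower genes. The windows were searched on both strands for the cyclic AMP response element TGACGTCA, its shorter form TGACG (also counted within the full element), the forkhead site TGTTTAC and the heat shock element, written as inverted repeats of GAA. The cyclic AMP element was in the windows of 2 of the 15 higher genes, Cope and Retreg1, of 2 of the 28 lower genes, Hps4 and Tra2a, and of 3.65% of the 2901 measured genes with a window (2.03% of all 27025 genes). The shorter form was in 9 of the 15 higher and 9 of the 28 lower genes, beside 37.4% of measured genes. The forkhead site was in 1 higher gene, Akap6 (3% of measured and 4.05% of all genes), and the heat shock element in 1 higher gene, Sf3b2 (0.758% of measured and 0.662% of all genes). A gene with several windows was counted if any of them matched, and a match describes the letters alone. The 3 higher genes below are shown because one held under every scaling and has the largest difference, one is the muscle anchoring gene above, and one changes direction with the scaling. The last, Retreg1, has several windows, and only the window shown holds the full cyclic AMP element. Sf3b2 has another window that overlaps the one shown and also holds the heat shock element. Capitals mark the match, each on the strand of the gene and 5′ to 3′: Sf3b2 at chr19:5295408-5295707 on the minus strand, Akap6 at chr12:52699133-52699432 on the plus strand, and Retreg1 at chr15:25843048-25843347 on the plus strand.
Sf3b2: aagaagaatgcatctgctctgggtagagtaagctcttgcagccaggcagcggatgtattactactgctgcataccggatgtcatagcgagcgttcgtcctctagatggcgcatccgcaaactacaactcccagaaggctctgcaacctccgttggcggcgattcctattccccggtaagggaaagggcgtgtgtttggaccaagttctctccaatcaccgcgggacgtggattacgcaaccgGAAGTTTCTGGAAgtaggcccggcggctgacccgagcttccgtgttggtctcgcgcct
Akap6: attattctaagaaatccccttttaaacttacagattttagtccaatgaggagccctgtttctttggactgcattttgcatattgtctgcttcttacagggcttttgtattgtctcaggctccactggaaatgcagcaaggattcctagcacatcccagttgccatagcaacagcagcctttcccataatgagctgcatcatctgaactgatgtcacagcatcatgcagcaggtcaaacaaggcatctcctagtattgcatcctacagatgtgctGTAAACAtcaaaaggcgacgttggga
Retreg1: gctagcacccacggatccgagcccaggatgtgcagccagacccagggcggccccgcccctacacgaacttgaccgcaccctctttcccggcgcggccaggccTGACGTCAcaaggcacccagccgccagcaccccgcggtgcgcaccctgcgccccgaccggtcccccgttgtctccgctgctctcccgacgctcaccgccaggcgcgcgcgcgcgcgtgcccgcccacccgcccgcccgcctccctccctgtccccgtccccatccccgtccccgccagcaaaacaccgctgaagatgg

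Of the 24 genes called higher on the centred ratios, 19 stayed above 0 after scaling and 5 lay below it. Sik1, a kinase induced by cyclic AMP that restrains the same pathway, had 2.61 at 3 h and 0.81 at 1 h, which is 3.49-fold higher, a difference of 1.80 that was 0.36 after scaling. Its ratios, not scaled, were 1.44, 0.81, 2.61, 1.16 and 1.06 on the 0, 1, 3, 8 and 24 h arrays. They were highest at 3 h and lowest at 1 h, which are also the widest and the narrowest of the paced arrays. Rgcc, a cell cycle regulator also found in endothelium, had 3.96 at 3 h and 2.52 at 1 h, with 1.45 on the centred ratios and -1.501 after scaling. Retreg1, which tethers endoplasmic reticulum to the autophagy machinery, had 3.31 at 3 h and 2.21 at 1 h, with 1.10 and -1.42. Rgcc and Retreg1 thus passed 2-fold in opposite directions before and after scaling. The Retreg1 values rest on the single probe measured on both arrays. With all probes of each array used, its difference was -0.75 without any scaling to one spread. Vamp8, an endosomal SNARE, had 2.74 at 3 h and 1.45 at 1 h, Ubr4, a ubiquitin ligase, 2.36 at 3 h and 1.16 at 1 h, and Chrd, an antagonist of bone morphogenetic proteins, 2.07 at 3 h and 0.93 at 1 h. After scaling their differences were -0.58, -0.36 and -0.17.

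Fuel selection genes lay on both sides. Pdk4, which inhibits pyruvate dehydrogenase, had 2.60 at 3 h and 1.80 at 1 h on 2 probes that disagreed in size (0.40 and 1.20), and its difference of 0.80 was -1.22 after scaling. Its course on those probes was 3.54, 1.80, 2.60, 2.32 and 1.67 on the 0, 1, 3, 8 and 24 h arrays. Pdp1, the phosphatase that reactivates pyruvate dehydrogenase, had 1.30 at 3 h and 0.12 at 1 h, 0.63 after scaling, and was below Pre on the 0, 8 and 24 h arrays, with -0.66, -0.78 and -1.04. Mlycd, which breaks down malonyl-CoA and so frees fatty acid entry into mitochondria, went the other way, with 0.08 at 3 h and 1.07 at 1 h. Its difference of -0.99 was just short of 2-fold and was -1.65 after scaling, and the 3 h array was its only paced array under 0.67. Ppp1r3c, which targets a phosphatase to glycogen, had 1.11 at 3 h and 1.47 at 1 h, and both of its probes were lower (-0.45 and -0.26). That difference of -0.36 was -1.63 after scaling. The 20 fatty acid oxidation genes had a median of 0.12, with 15 above 0, and -0.15 after scaling, with 6 above 0. Hadha, a subunit of the trifunctional enzyme, was highest at 0.65 (4 probes, probe SD 0.38).

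Scaling brought 19 further genes past 2-fold, all lower at 3 h and all above Pre on both arrays. With Mlycd, Ppp1r3c and Pdk4 they include Depp1, a forkhead target (-0.36, and -1.66 after scaling), Sesn1, a sestrin of the stress response (-0.18 and -1.15), and Nfe2l2, the antioxidant regulator Nrf2 (-0.11 and -1.27). They also include Lrrc58 (0.35 and -1.51), Sel1l, a factor of protein disposal at the endoplasmic reticulum (0.46 and -1.64), and Ubb-ps, a ubiquitin pseudogene whose spot may bind its relatives (0.47 and -1.55). Of the 19, 10 were below 0 before scaling.

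For most genes far from Pre on the 0 h and 8 h arrays, the direction of the difference changed with the scaling. What follows is a description of genes picked on those arrays. At least 2-fold above Pre at both 0 h and 8 h were 35 genes, with medians of 1.66 at 3 h and 1.15 at 1 h. Of these, 30 were higher and 5 lower at 3 h on the centred ratios (median difference 0.47). After scaling, 33 were lower and 2 higher at 3 h (-0.71). Quantile normalization put 14 above 0 and 20 below (-0.06). At least 2-fold below Pre at 0 h and 8 h were 11 genes, among them Aqp4, Tfrc, Prkag3, Klhl31 and Amd2, and all 11 were lower at 3 h on the centred ratios (median -0.24) and higher after scaling (0.39), while quantile normalization put 9 above 0 and 2 below (0.23). Whether the narrow 1 h ratios come from the muscle or from the array cannot be told apart with 1 array per time.

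Genes with several probes offer a check of the spot, and none of the 376 genes with 3 or more probes was called: their differences ran from -0.88 to 0.86. In 13 of them the mean was 0.5 or more in size and every probe lay on one side of 0, with 10 higher and 3 lower at 3 h. Hspb7, a small heat shock protein of muscle, had means of 1.66 at 3 h and 0.80 at 1 h (0.86, 6 probes, probe SD 0.50), and Hspa8, the constitutive Hsp70, had 1.16 at 3 h and 0.60 at 1 h (0.56, 10 probes, probe SD 0.25). Bag3, a co-chaperone of the Z-disc, stood at 0.59 (5 probes, probe SD 0.42) and Atf4, a stress transcription factor, at 0.53 (5 probes, probe SD 0.29). After scaling these 4 were at -0.22, -0.22, -0.07 and -0.77. Those above 0 on both scales were Ankrd1, a stretch-responsive repeat protein, at 0.81 (3 probes, probe SD 0.59) and 0.36, Herpud1, of the unfolded protein response, at 0.74 (3 probes, probe SD 0.91) and 0.71, Hsd17b4, of peroxisomal fatty acid oxidation, at 0.62 and 0.10, Hadha, and Ndufa5, of respiratory complex I, at 0.54 and 0.27. The lower 3 were below 0 on both scales. They were Btbd2 at -0.88 (3 probes, probe SD 0.23) and -0.66, Dbi, which binds acyl-CoA, at -0.72 (3 probes, probe SD 0.30) and -0.47, and Pln, phospholamban, the inhibitor of the slow calcium pump, at -0.59 (5 probes, probe SD 0.34) and -0.32.

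**Figure D3:**
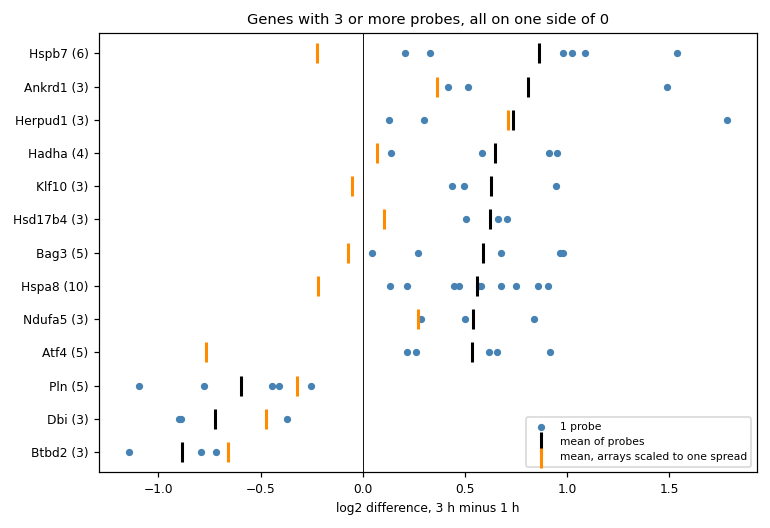
Log2 difference, 3 h minus 1 h, of each probe (blue points) for the 13 genes with 3 or more probes, all on one side of 0, and a mean of 0.5 or more in size. The number of probes follows the name, black bars are the means and orange bars the means after scaling. Hspb7, Hspa8, Bag3, Klf10 and Atf4 lie above 0 on the centred ratios and below it after scaling.

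Both genes called on 2 probes were lower at 3 h. Dmpk, the kinase gene of myotonic dystrophy, had -1.20 at 3 h and -0.18 at 1 h (-1.02, probe SD 0.34), and Leng9 had -1.18 at 3 h and -0.12 at 1 h (-1.05, probe SD 0.26). After scaling they were at -0.47 and -0.54. Tsc1, a brake on the growth kinase mTOR, stood at -0.83 on 2 probes that agreed closely (probe SD 0.02), and at -0.43 after scaling.

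Most gene groups stayed close to the whole array, where the median difference was 0.01 and 51.7% of genes were above 0 (49.9% after scaling). Over the whole array 1.65% of genes were called in either direction. For immediate early and feedback genes the median was 0.03, 12 of 22 lay above 0, and Sik1 was the member called. The next highest were Rrad, a small GTPase that restrains calcium channels, at 0.91, Klf10, an early response factor, at 0.63 (3 probes, probe SD 0.28), Rcan1, an inhibitor of calcineurin, at 0.51 (2 probes, probe SD 0.09) and Jun at 0.50 (2 probes, probe SD 0.06). After scaling 3 of 22 were above 0 and the median was -0.15. The atrophy and autophagy list had 9 of 15 above 0 (median 0.07), against -0.33 and 1 of 15 after scaling. Trim63 was the highest at 0.82, but its probes gave 0.25 and 1.38, and its difference was -0.70 after scaling. Fbxo32, the other muscle ubiquitin ligase gene, was level, with 1.05 at 3 h and 1.03 at 1 h (-0.97 after scaling), against 2.94, 2.29 and 3.01 on the 0, 8 and 24 h arrays. Gabarapl1 and Gabarapl2, close relatives in autophagosome formation, stood at 0.63 and -0.71.

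The chaperone list centred on 0.07, and 19 of 35 lay above 0, ranging from Cct4, a chaperonin subunit, at -0.65 to Hspb7. For the proteasome the median was 0.06, and 17 of 27 lay above 0. Psmc1, an ATPase subunit, was the member called, lower, with -1.22 at 3 h and -0.16 at 1 h (-0.52 after scaling), while its fellow ATPase gene Psmc5 stood at 0.63 and the core gene Psma3 at 0.76. The redox list lay higher, at a median of 0.17 and 15 of 21 above 0, with Prdx1, a peroxiredoxin, highest at 0.83. After scaling the median was -0.13. The 6 polyamine genes had a median of 0.19, or 0.04 after scaling, with Srm, spermidine synthase, highest at 0.61.

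Oxidative phosphorylation genes were shifted by a small amount on both scales. Their median was 0.13, with 56 of 79 above 0, and 0.06 after scaling, with 49 above 0. Members with 8 or more probes ranged from Sdhb at -0.05 (8 probes, probe SD 0.30) to Cox5a at 0.28 (10 probes, probe SD 0.26). No member was called, and the extremes were Uqcrq at 0.80 and Ndufa12 at -0.87, with 1 probe each. The TCA cycle list stood at 0.08 with 13 of 18 above 0, cytosolic ribosomal protein genes 0.10 with 40 of 59, and translation factors and tRNA synthetases 0.11 with 24 of 42. The 59 include Rps6ka6 (0.25), a signalling kinase gene that the symbol pattern of that list let in. After scaling these 3 medians lay at -0.00, -0.02 and -0.01. Eif4a2, a helicase of translation initiation, was the member called, with 1.31 at 3 h and 0.25 at 1 h (0.43 after scaling). Genes of the mitochondrial ribosome and import had a median of 0.01. Of these Mrps10, a small-subunit protein, was called lower with -1.25 at 3 h and -0.03 at 1 h (-0.73 after scaling).

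Contractile genes showed small differences. The 20 fast fibre genes ranged from Myh2 at -0.38 to Ryr1, the calcium release channel, at 0.20 (8 probes, probe SD 0.16), with a median of -0.03 and 7 above 0. Myh4, the fastest myosin heavy chain, stood at -0.09 (33 probes, probe SD 0.22), Tpm1, a tropomyosin, at -0.04 (88 probes, probe SD 0.22) and Aldoa, muscle aldolase, at -0.12 (42 probes, probe SD 0.24). Probes of myosin, actin and tropomyosin genes may bind other family members. Slow fibre genes had a median of -0.00, with Ankrd1 highest and Sln, sarcolipin, lowest at -0.72. Sln and Pln, both inhibitors of the calcium pump, were the lowest of the 24 calcium handling genes, whose median was 0.07. Genes of glycolysis and glycogen centred on 0.00, from Pygb, a glycogen phosphorylase, at -0.90 to Pfkl at 0.42, and the 27 Z-disc genes had 0.06. Exercise-responsive metabolic regulators had 0.07 (-0.17 after scaling), signalling kinases and phosphatases -0.01, solute carriers 0.05, iron and heme genes 0.06 and creatine genes 0.02.

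**Figure D4:**
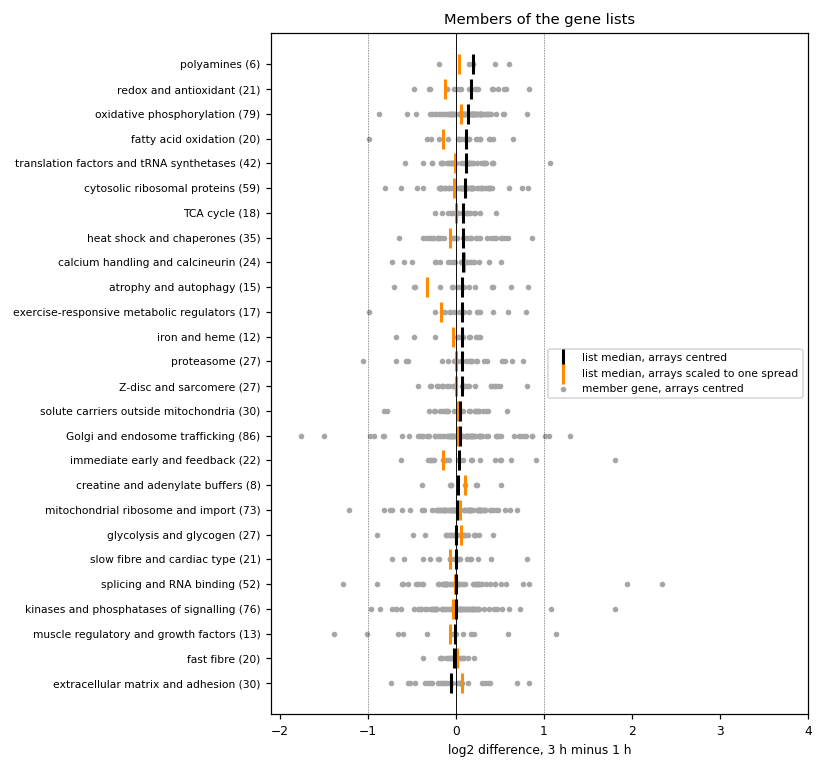
Log2 difference, 3 h minus 1 h, of the measured members of 26 gene lists (grey points, number measured in brackets). Black bars are list medians on the centred ratios and orange bars medians after both arrays were scaled to one spread, and dotted lines mark 2-fold. Medians lie between -0.06 for extracellular matrix genes and 0.19 for polyamine genes, with single members beyond 2-fold.

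Of 13 muscle regulatory and growth factor genes, 1 was called higher and 2 lower, and of 30 matrix and adhesion genes none was called (0 of 30). The share called over all genes was 1.65% in either direction. Efna5, an ephrin ligand, had -1.54 at 3 h and -0.15 at 1 h (-1.39, or -0.73 after scaling), and Pdgfra, the receptor that marks fibroblasts, had -1.23 at 3 h and -0.21 at 1 h (-1.02, or -0.44). Igfbp2, which binds insulin-like growth factors and is in neither list, was also called lower, with -1.31 at 3 h and -0.18 at 1 h (-0.55 after scaling). Chrd, above, was the higher member of the list. Matrix and adhesion genes had 13 of 30 above 0 (median -0.06), from Lum, a collagen-binding proteoglycan, at -0.74 (2 probes, probe SD 0.06) to Nid1, a basement membrane protein, at 0.83. After scaling that median was 0.07.

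Markers of other cell types were few on the array, and in whole muscle RNA fewer cells of a type cannot be told apart from less RNA per cell. Of 6 fibroblast markers 5 were below 0, with a median of -0.16 (-0.08 after scaling) and a range from Pdgfra to Mfap5 at 0.05. Of 7 smooth muscle and pericyte markers 5 were below 0, with a median of -0.15 and Pdgfrb lowest at -0.66. Of 10 endothelial markers 6 were above 0, with a median of 0.22 (-0.11 after scaling) and a range from Eng at -0.64 to Rgcc. The 3 macrophage and neutrophil markers measured were Laptm5 at 0.58, C1qb at 0.49 and Lyz2 at -0.03. The 3 erythroid markers had a median of -0.14 (0.46 after scaling), the 3 adipocyte markers 0.01 and the 3 Schwann cell and nerve markers 0.10, and no lymphocyte marker had a value. The 13 skeletal muscle fibre markers had a median of -0.09 (0.01 after scaling), with 3 above 0. The part of cell makeup in the differences above was not tested.

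Of 19 higher genes with a value on all 5 paced arrays, 18 were highest at 3 h, and of 26 lower genes, 25 were lowest at 3 h. The genes were chosen on the 3 h and 1 h arrays, so both counts are a description of the choice, beside 27% and 28.2% of all 3199 such genes. The exceptions were Vamp8, highest at 24 h, and Golga1, lowest at 0 h. At 8 h, 16 of the 19 higher genes and 24 of the 26 lower genes stood nearer to their 1 h ratio than to their 3 h ratio, which the choice also favours, so nothing is read from these counts beside the 70% of all genes. The 8 h array was also narrow, with a robust SD of 0.242. The 3 higher genes nearer to their 3 h ratio were Vamp8, with 2.74, 2.48 and 3.09 on the 3, 8 and 24 h arrays, Retreg1, with 3.31, 3.13 and 2.78, and Cckar, with 1.37, 0.91 and 1.14. The 2 lower ones were Kap, with -0.81, -0.36 and -0.47, and Cyp26b1, which degrades retinoic acid, with -1.12, -0.77 and -0.09. Abhd10, a lipase-like enzyme, was low at 3 h with -2.41 and at 1 h with -1.08, stood at -0.34 at 8 h and was low again at 24 h with -1.77.

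**Figure D5:**
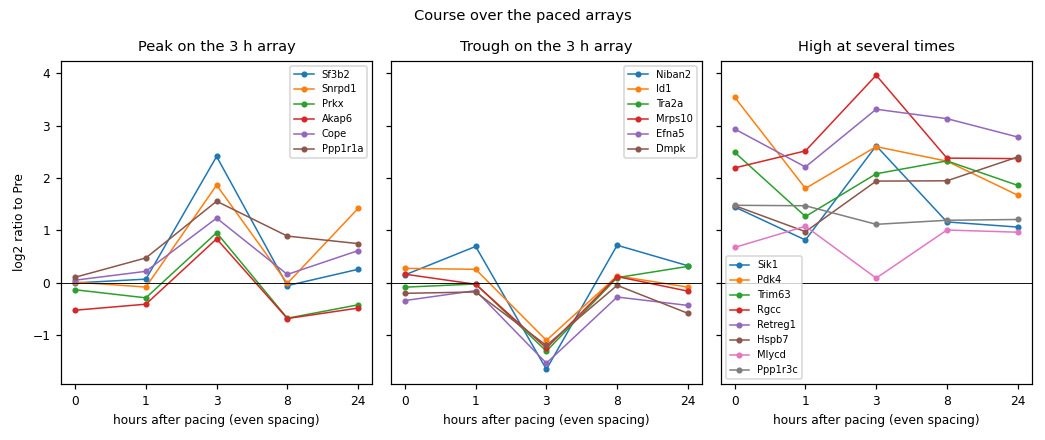
Log2 ratio to Pre on the 5 paced arrays, 1 array per time, for genes highest at 3 h (left), genes lowest at 3 h (middle) and genes high at several times (right). Sf3b2 stands at 2.41 at 3 h and between -0.06 and 0.25 at the other times. On these centred ratios, which are not scaled, Pdk4, Trim63, Retreg1, Sik1 and Hspb7 are lower at 1 h than at 0 h and 3 h. After scaling, the difference of 3 h minus 1 h was below 0 for Pdk4 (-1.22), Trim63 (-0.70), Retreg1 (-1.42) and Hspb7 (-0.22). For Sik1 it was 0.36. Times are evenly spaced and lines only join the points of a gene.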

How the data were processed

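The authors deposited 1 log10 ratio per probe and array. Each array set muscle RNA (channel 1) against the reference RNA Pre (channel 2), per the labels. The base is read from cells holding the rounding residue of log10, and the scanner, background correction and normalization are not given in the sources used here. The ratios were converted to log2, exact zeros (1673 at 3 h and 1260 at 1 h) were set to missing, and each array was centred on its median. Of 13872 probes, 6609 had exactly 1 gene symbol in the platform annotation, 284 several and 6979 none, and 6599 of the 6609 matched GRCm38.p6 by Entrez ID, used for names. A gene's difference is the mean over its probes measured on both arrays. For the second scale, each array was divided by its robust SD and multiplied by the geometric mean of both, 0.280. The code (Python 3.11.15, pandas 2.3.3) recovered known changes in simulated data, where every planted change exceeded 2-fold and all arrays had the same noise. Calls on arrays of unequal spread, as here, were not checked that way.

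The comparison, the 35 gene lists and the alternatives were chosen with earlier results of these data known. Genes named by rule were up to 15 per direction called on both scales, genes with 2 or more probes on one side of 0 and 2-fold, the called (otherwise extreme) members of each list, genes called in opposite directions, and up to 5 called after scaling alone. Other names were chosen after their values were seen. The sham array was not used. Alternatives were 3 scalings, zeros kept, other ways to join probes and other centrings.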

Additional observations from a re-analysis of the deposited data

How the results depend on the processing

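With 1 array per time no array could be left out. No paired analysis was possible because each group has 1 array. The 24 higher and 35 lower genes became 7 and 27 with arrays scaled to one robust SD (20.6% of calls higher, against 40.7%), 8 and 13 with one plain SD, and 9 and 10 after quantile normalization (47.4% higher). Of the 59 genes, 13, 16 and 18 were still called. Genes with several probes alone gave 0 higher and 2 lower of 946. Keeping zeros, other centrings, the median of probes and all probes of each array gave 23 to 25 higher and 35 to 37 lower. The sign turned under robust SD scaling for Rgcc (-1.501), Retreg1 (-1.42), Vamp8 (-0.58), Ubr4 (-0.36), Chrd (-0.17) and Abhd10 (0.19), under plain SD scaling for Retreg1 (-0.69), Rgcc (-0.65) and Vamp8 (-0.0454), and for Retreg1 with all probes of each array (-0.75). The scalings change the weight of each array by construction. Of 34 list medians, 16 kept their sign under robust SD scaling, 23 under plain SD scaling and 21 after quantile normalization. The ratios carry no signal over background, so the precision of dim spots is unknown.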

Other observations

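Genes of the stress response of the endoplasmic reticulum, picked after their values were seen, lay on both sides at 3 h against 1 h. Herpud1 had 0.48 at 3 h and -0.26 at 1 h on 3 probes whose differences ran from 0.13 to 1.78. Atf4 had 1.68 at 3 h and 1.15 at 1 h. After scaling the difference was 0.71 for Herpud1 and -0.77 for Atf4. Ddit3, a transcription factor that Atf4 is known to induce, had -1.04 at 3 h and -0.05 at 1 h on 1 probe. Its difference of -0.995 was -0.58 after scaling. Chaperone genes of the endoplasmic reticulum differed less than Herpud1 and Ddit3. Hspa5, Dnajb9, Hsp90b1, Pdia3, Canx and Calr stood at 0.15, 0.09, -0.21, -0.13, -0.34 and 0.52.

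The phosphodiesterase gene Pde4b, which breaks down cyclic AMP, had 1.68 at 3 h and 0.75 at 1 h, a difference of 0.93 that was -0.13 after scaling. Its relative Pde4d had 0.31 at 3 h and 0.40 at 1 h (2 probes, probe SD 0.26).

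Mt1, a metallothionein whose spot may bind its close relatives, had ratios of 3.13, 0.47, 0.88, 3.16 and 3.59 on the 0, 1, 3, 8 and 24 h arrays. Mt1 and Fbxo32 were above Pre on every paced array, and both were lower on the 3 h and 1 h arrays than on the others.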
